A study of Mus musculus with 15 samples.

Results

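The proteasome genes were taken as every gene whose symbol begins with Psm, followed by a letter from a to g, a number and at most 1 more letter. The rule found 49 of the 25101 genes in the count tables by symbol alone, although the set was picked for study with earlier results of these data known. They were read in 2 RNA-seq libraries of BALB/c mouse bone marrow-derived eosinophils, which are the only RNA libraries among the 15 samples. Unselected bone marrow progenitors were grown for 14 days, with stem cell factor and FLT3 ligand (100 ng/mL each) on days 0 to 3 and interleukin 5 (10 ng/mL) on days 4 to 14. The cells were therefore a culture driven to the eosinophil fate in vitro, not eosinophils sorted from an animal. The share of eosinophils in the culture at day 14 is not stated here. The eosinophil libraries were set beside 2 count tables of other studies, 1 of macrophages and 1 of neutrophils. The strain, stimulation and library kit of those cells are not stated here. Each outside table is 1 library, so cell type and study cannot be told apart and no p-value is given.

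The proteasome is the large protease complex that degrades proteins tagged with ubiquitin. Its core is a barrel of alpha and beta rings, with the protease sites on 3 of the beta subunits, and a regulatory particle of ATPase and non-ATPase subunits unfolds the substrate and feeds it in. Interferon-gamma is known to raise 3 alternative catalytic subunits (Psmb8, Psmb9 and Psmb10), which take the places of Psmb5, Psmb6 and Psmb7 in newly built particles. The resulting immunoproteasome yields many of the peptides that class I MHC molecules present, and blood cells often carry it without stimulation.

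The promoters of 5 of the 6 catalytic genes, all but Psmb7, are printed because the immune subunits and their constitutive counterparts are the pairs on which the comparison turns. Each is the 250 bases before the annotated start, from RefSeq on GRCm38.p6, written 5′ to 3′ on the strand of the gene. Psmb8 lies on chromosome 17, and its window is chr17:34197945-34198194 on the plus strand. The Psmb9 window is chr17:34187331-34187580 on the minus strand, and the start of Tap1, a subunit of the peptide transporter, falls inside that window on the opposite strand. The Psmb10 window is chr8:105938393-105938642 on the minus strand. For the constitutive genes, the Psmb5 window is chr14:54617996-54618245 on the minus strand and the Psmb6 window is chr11:70525107-70525356 on the plus strand. Capitals mark the matches to the motifs searched on both strands, so that a match on the other strand reads as the reverse complement.
Psmb8: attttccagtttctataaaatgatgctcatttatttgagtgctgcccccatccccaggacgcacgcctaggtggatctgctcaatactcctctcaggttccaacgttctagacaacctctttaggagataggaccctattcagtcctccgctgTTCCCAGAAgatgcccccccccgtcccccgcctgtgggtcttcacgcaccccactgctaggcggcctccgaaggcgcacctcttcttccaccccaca
Psmb9: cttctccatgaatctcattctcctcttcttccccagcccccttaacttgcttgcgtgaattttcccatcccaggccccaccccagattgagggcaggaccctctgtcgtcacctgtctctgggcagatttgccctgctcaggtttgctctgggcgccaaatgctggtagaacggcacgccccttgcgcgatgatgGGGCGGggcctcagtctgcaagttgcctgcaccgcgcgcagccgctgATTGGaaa
Psmb10: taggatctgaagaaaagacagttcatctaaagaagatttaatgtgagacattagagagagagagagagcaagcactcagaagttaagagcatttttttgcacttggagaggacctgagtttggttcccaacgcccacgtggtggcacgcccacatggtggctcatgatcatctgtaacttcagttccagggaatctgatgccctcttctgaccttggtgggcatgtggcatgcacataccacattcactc
Psmb5: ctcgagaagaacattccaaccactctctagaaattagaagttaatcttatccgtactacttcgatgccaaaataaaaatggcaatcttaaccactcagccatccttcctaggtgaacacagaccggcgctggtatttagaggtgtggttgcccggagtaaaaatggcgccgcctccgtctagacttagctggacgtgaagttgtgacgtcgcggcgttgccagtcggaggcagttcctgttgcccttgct
Psmb6: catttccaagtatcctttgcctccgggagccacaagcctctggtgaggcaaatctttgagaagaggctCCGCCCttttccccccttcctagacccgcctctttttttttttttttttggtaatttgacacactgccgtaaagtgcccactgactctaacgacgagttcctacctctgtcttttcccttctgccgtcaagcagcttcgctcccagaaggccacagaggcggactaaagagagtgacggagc

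In the Psmb8 window the capitals are a gamma-activated site (TTCNNNGAA), an element of the interferon-gamma response, which begins 97 bases before the start. In the Psmb9 window they are a GC box (GGGCGG) 55 bases before the start and, on the other strand, a CCAAT box (CCAAT) 8 bases before it. The Psmb6 window has a GC box on the other strand 182 bases before the start. The Psmb10 and Psmb5 windows held none of the motifs searched, which says only that these letters are not in these windows. No printed matches overlapped. Windows were at hand for 41 of the 49 symbols, 44 windows in all with alternative starts. The gamma-activated site was in 2 of the 44 (4.55%), Psmb8 and Psmg1, against 7.02% of all 32851 windows. A repeat read by interferon regulatory factors (GAAANNGAA) was in 3 of the 44 (6.82%), against 7.13% of all windows. The ETS core (GGAAGT) was in 17 of the 44 (38.6%), against 19.7% of all windows, and the GC box in 23 (52.3%), against 32.7%. CCAAT was in 14 (31.8%), against 33.8%, and the AP-1 site (TGACTCA) in 1 (2.27%), against 4.46%. These shares describe letters in the windows and are not binding sites.

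Depth differed widely. The eosinophil libraries held 40306679 and 30465490 counts, against 106940777 in the macrophage table and 6390310 in the neutrophil table, and values are given as CPM, the counts scaled to the same total in every table. A level of 3 counts equals 0.0744 and 0.0985 CPM in eosinophil libraries 1 and 2, 0.0281 CPM in the macrophage table and 0.469 CPM in the neutrophil table. Eosinophil markers summed to 13376 and 13634 CPM in the eosinophil libraries, against 3.42 CPM in the macrophage table, where 4 of 10 were at 0, and 338 CPM in the neutrophil table. Macrophage markers summed to 4067 and 4436 CPM in the eosinophil libraries, with all 11 detected, against 10563 CPM in the macrophage table and 738 CPM in the neutrophil table. Neutrophil markers summed to 2334 and 2021 CPM in the eosinophil libraries, against 289 CPM in the macrophage table and 3031 CPM in the neutrophil table. The neutrophil markers were set against the neutrophil table with a difference of at least 2-fold in both eosinophil libraries as the rule. Of the 11 markers, 6 were lower in the eosinophil libraries (Camp, Ltf, Mmp8, Mmp9, Cxcr2 and Csf3r), against 24.4% of all genes. Another 3 were higher (Ly6g, Ngp and Retnlg), near the 27.6% of all genes. S100a9 was not called and had 241 and 203 CPM in the eosinophil libraries, against 31.2 CPM in the macrophage table and 136 CPM in the neutrophil table. Dendritic cell markers summed to 542 and 837 CPM in the eosinophil libraries, against 361 and 67.1 CPM in the macrophage and neutrophil tables. By the 2-fold rule 8 of the 11 macrophage markers were lower than in the macrophage table, against 17.0% of all genes. Only 1 was higher (Msr1), against 23.7% of all genes. Adgre1 alone had 1357 and 1558 CPM of the macrophage marker sum in eosinophil libraries 1 and 2. Whether these marker counts come from other cells was not tested, nor was a part of such cells in the proteasome values. In bulk RNA, fewer cells of a type and less RNA per cell cannot be told apart.

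In both eosinophil libraries 47 of the 49 genes had at least 1 CPM, against 47.5% of all genes. The exceptions were Psma8 and Psmb11, which are known from testis and from thymic cortex. Psma8, an alpha subunit of the germ line, had 24 and 10 counts (0.595 and 0.328 CPM) in the eosinophil libraries, against 1.26 CPM in the macrophage table and 0 counts in the neutrophil table. Psmb11, the catalytic subunit of the thymoproteasome, had 2 and 0 counts in the eosinophil libraries and 0 in both outside tables. Together the 49 genes took 0.372% and 0.355% of the counts in the eosinophil libraries, against 0.494% in the macrophage table and 0.371% in the neutrophil table. The exact 95% intervals, which cover counting error only, were 0.370 to 0.374% and 0.352 to 0.357% in the eosinophil libraries, 0.493 to 0.496% in the macrophage table and 0.366 to 0.375% in the neutrophil table. The macrophage share was above the others, and the neutrophil share overlapped that of eosinophil library 1.

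The 2 eosinophil libraries gave nearly the same proteasome levels. Library 1 over library 2 ranged from 0.933-fold (Psmb6) to 1.21-fold (Psmb10) over the 47 detected genes, so 0 genes passed 1.5-fold, against 7.24% of all detected genes. The detected genes reach down to 1 CPM, most proteasome genes lie well above that, and genes of like level were not compared. Library 1 was the higher for 43 of 47 genes by file totals, against 65.9% of all detected genes, with a median log2 ratio of 0.08 against 0.06. With TMM scaling it was the higher for 29 genes and with DESeq2 size factors for 28, so the shared direction depended on the scaling. The shares of all detected genes with those scalings are not given here. Stromal and endothelial markers summed to 2534 CPM in library 1 and 740 CPM in library 2, and their part in the small differences was not tested.

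The balance of immune and constitutive catalytic subunits differed from site to site. Summed over the 3 immune and the 3 constitutive genes, the immune share of the counts was 48.4% and 46.8% in the eosinophil libraries, against 50.1% in the macrophage table and 49.3% in the neutrophil table. The exact 95% intervals were 47.6 to 49.1% and 45.9 to 47.7% in the eosinophil libraries, 49.8 to 50.5% in the macrophage table and 47.2 to 51.5% in the neutrophil table. As a ratio of immune to constitutive counts this was 0.909 ± 0.040 (SD, n = 2) in the eosinophil libraries, against 1.00 and 0.974 in the macrophage and neutrophil tables. The similar totals were made up of unlike pairs. Ratios of counts are not molar ratios, because transcript lengths were not used, and only the same ratio is compared between libraries.

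Psmb8, the immune form of the chymotrypsin-like subunit, had 124 and 117 CPM in the eosinophil libraries, against 170 CPM in the macrophage table and 73.1 CPM in the neutrophil table. Its constitutive counterpart Psmb5 had 36.5 and 34.1 CPM in the eosinophil libraries, against 64.6 and 54.6 CPM in the macrophage and neutrophil tables. Psmb5 was thus below both outside tables, and Psmb8 lay between them. The ratio of Psmb8 to Psmb5 was 3.38 and 3.44 in the eosinophil libraries, against 2.63 in the macrophage table and 1.34 in the neutrophil table. It was therefore 1.30-fold that of the macrophage table and 2.55-fold that of the neutrophil table.

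Psmb9, the immune form of the caspase-like subunit, had 44.8 and 44.9 CPM in the eosinophil libraries, against 62.0 CPM in the macrophage table and 71.0 CPM in the neutrophil table. Its counterpart Psmb6 had 108 and 115 CPM in the eosinophil libraries, against 153 and 53.2 CPM in the macrophage and neutrophil tables. Here the eosinophil pair lay close to the macrophage pair and stood apart from the neutrophil pair. The ratio of Psmb9 to Psmb6 was 0.416 and 0.390 in the eosinophil libraries, against 0.406 in the macrophage table and 1.34 in the neutrophil table, which is 3.31-fold the eosinophil mean. Psmb6 was more than 2-fold higher in both eosinophil libraries than in the neutrophil table (log2 ratio 1.07).

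Psmb10, the immune form of the trypsin-like subunit, had 36.0 and 29.6 CPM in the eosinophil libraries, against 109 CPM in the macrophage table and 24.7 CPM in the neutrophil table. Its counterpart Psmb7 had 73.8 and 68.5 CPM in the eosinophil libraries, against 122 and 65.6 CPM in the macrophage and neutrophil tables. For this pair the eosinophil libraries were near the neutrophil table, and the macrophage table was high. The ratio of Psmb10 to Psmb7 was 0.487 and 0.433 in the eosinophil libraries, against 0.892 in the macrophage table and 0.377 in the neutrophil table. Relative to the macrophage table Psmb10 was lower than the other catalytic genes, at a log2 ratio of -1.74 ± 0.20 (SD, n = 2), a level 3.33-fold higher in the macrophage table.

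**Figure D1:**
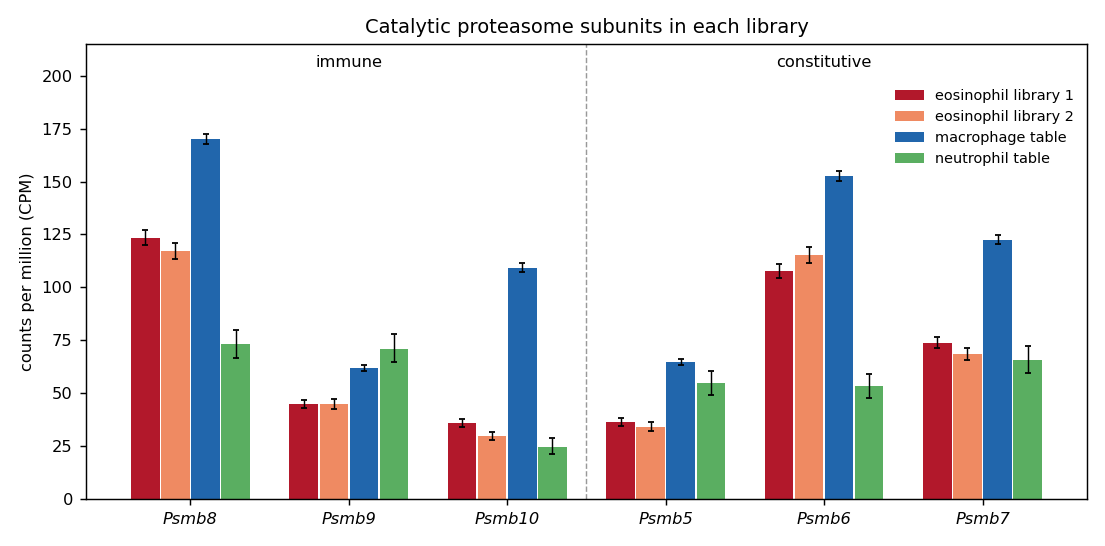
CPM of the 3 immune and 3 constitutive catalytic genes in eosinophil libraries 1 and 2, the macrophage table and the neutrophil table, with exact 95% Poisson intervals that cover counting error only. Psmb10 has 36.0 and 29.6 CPM in the eosinophil libraries, against 109 CPM in the macrophage table and 24.7 CPM in the neutrophil table.

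**Figure D2:**
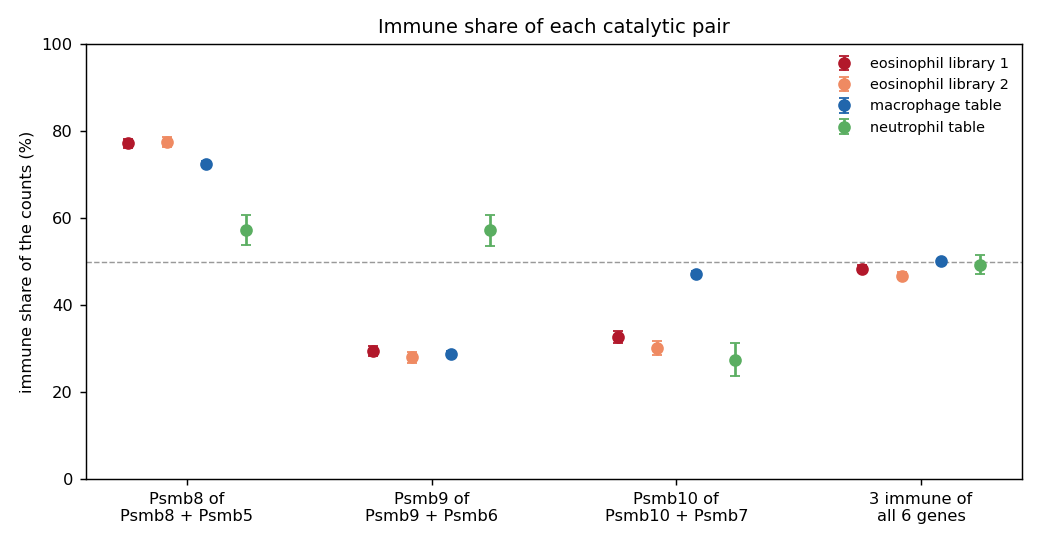
Immune share of the counts of each catalytic pair and of all 6 genes, in percent, with exact 95% binomial intervals; the dashed line is an equal share. The 4 libraries lie between 46.8% and 50.1% for all 6 genes, while the Psmb9 share is 29.4% and 28.0% in the eosinophil libraries, against 28.9% in the macrophage table and 57.2% in the neutrophil table.

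Across all proteasome genes, levels in the eosinophil libraries were mostly below those of the macrophage table by a modest factor. A gene was called higher or lower where both eosinophil libraries lay at least 2-fold above or below the outside CPM, among genes with a mean of at least 1 CPM. Relative to the macrophages 0 of 47 genes were called higher, against 23.7% of all 12125 genes tested, and 3 were called lower (Psmb10, Psmd8 and Psme2b), against 17.0%. Both eosinophil libraries lay below the macrophage table for 36 of 47 genes (76.6%), against 46.9% of all genes tested, and above it for 5 (10.6%), against 47.8%. The median log2 ratio of the 47 genes was -0.36, which is 0.781-fold, against 0.02 over all genes tested. TMM scaling moved the all-gene median to -0.12 and the proteasome median to -0.50, so the gap between them was -0.38 on either scale. With no filter on low values the gap was -0.64, and with a 10 CPM filter it was -0.27.

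The neutrophil table gave no such shift. There 3 genes were called higher (Psmb6, Psmg2 and Psmg4), against 27.6% of all 12238 genes tested, and 3 lower (Psmd10, Psme2b and Psme4), against 24.4%. Both eosinophil libraries lay below the neutrophil table for 21 of 47 genes (44.7%), against 51.6% of all genes tested, and above it for 24 (51.1%), against 45.4%. The median log2 ratio was 0.08, against -0.13 over all genes tested. The sign of the proteasome median changed with a 10 CPM filter, to -0.014. The all-gene median was -0.35 there, so the proteasome genes stayed above it, by 0.34. TMM scaling moved the all-gene median to 0.19 and the proteasome median to 0.39, so that the gap was 0.20 there, against 0.21 by file totals. With no filter on low values the gap turned to -0.24, with an all-gene median of 0.35 and a proteasome median of 0.11. Set against both tables at once by file totals, 16 of 47 genes (34.0%) were below both in both eosinophil libraries, against 25.0% of all genes tested in both. That number depended on the scaling. With TMM 10 of 47 were below the neutrophil table, so no more than 10 could be below both. The number below the macrophage table was 42 of 47 with TMM. The shares of all genes below each table with TMM are not given here, and the all-gene medians moved as well. Psma2 and Psma3, both of the alpha ring, were above both by file totals. The share of all genes above both is not given here.

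**Figure D3:**
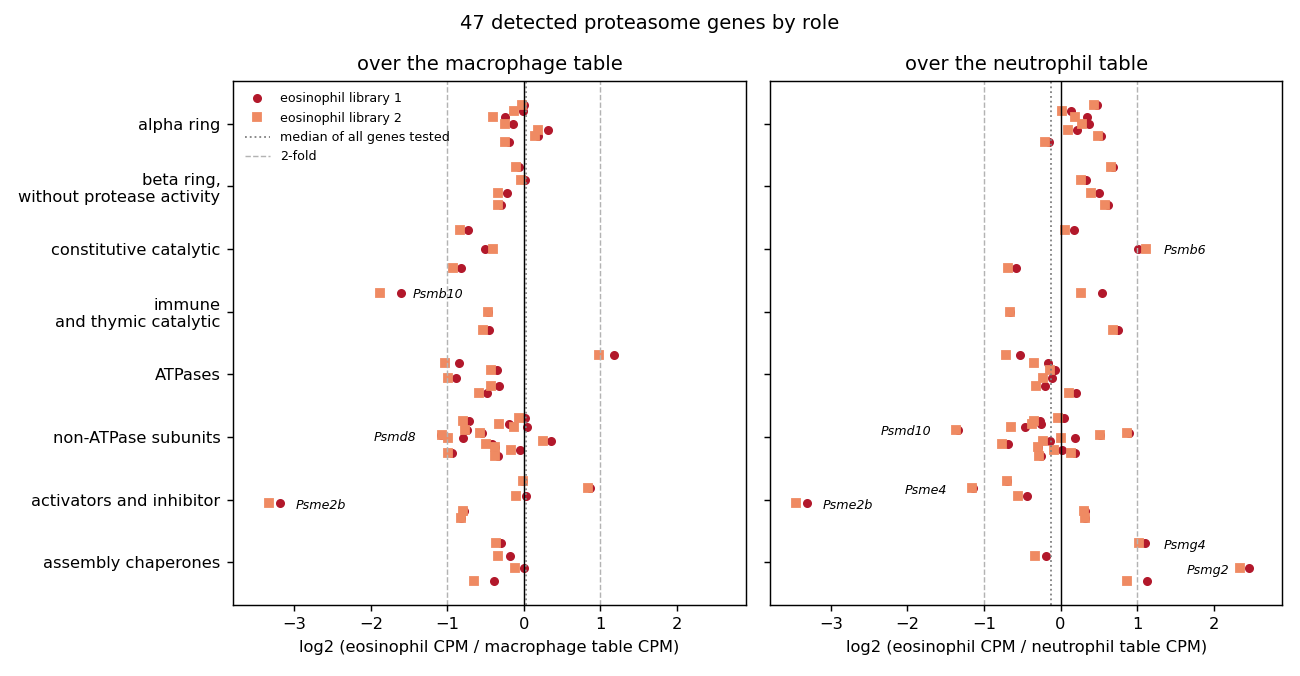
Log2 ratio of the CPM in eosinophil library 1 (circles) and library 2 (squares) over the macrophage table and over the neutrophil table, for the 47 detected genes by role. Dashed lines mark 2-fold, the dotted line is the median of all genes tested, and named genes are those called; the role medians run from -0.78 to -0.07 over the macrophage table and from -0.60 to 1.03 over the neutrophil table.

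The alpha ring, whose subunits form the gate of the barrel, differed least from the macrophage table. The 7 detected alpha genes had a median log2 ratio of -0.07 over the macrophage table and 0.27 over the neutrophil table. In either comparison 0 of 7 were called. Of all genes tested, 23.7% were called higher and 17.0% lower than in the macrophage table. Those shares were 27.6% and 24.4% for the neutrophil table. Psma7 had 111 and 108 CPM in the eosinophil libraries, against 111 CPM in the macrophage table and 80.0 CPM in the neutrophil table. Psma2 had 110 and 108 CPM in the eosinophil libraries, against 97.2 and 76.8 CPM in the macrophage and neutrophil tables. Psma5 had 67.7 and 60.5 CPM in the eosinophil libraries, against 80.1 and 53.2 CPM in the macrophage and neutrophil tables. The alpha values of the eosinophil libraries thus stayed near the macrophage table. All but Psma1 were above the neutrophil table, against 45.4% of all genes tested.

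The 4 beta subunits without protease activity had a median log2 ratio of -0.18 over the macrophage table and 0.52 over the neutrophil table. Psmb4 had 125 and 123 CPM in the eosinophil libraries, against 131 CPM in the macrophage table and 77.8 CPM in the neutrophil table. All 4 were above the neutrophil table in both eosinophil libraries, by log2 ratios of 0.30 to 0.67, against 45.4% of all genes tested. The 3 constitutive catalytic genes, by contrast, had a median log2 ratio of -0.78 over the macrophage table, and all 3 were below it in both eosinophil libraries. The 3 detected immune genes had a median of -0.50, and all 3 were below it too. Of all genes tested, 46.9% were below the macrophage table. Core subunits of the same barrel therefore did not share 1 ratio to the macrophage table.

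The 6 ATPases form the ring that unfolds substrates. Their median log2 ratio was -0.46 over the macrophage table and -0.21 over the neutrophil table. The sign over the neutrophil table changed with TMM scaling, to 0.10. By file totals 5 of 6 were below each table, against 46.9% and 51.6% of all genes tested. Psmc3 had 96.9 and 89.9 CPM in the eosinophil libraries, against 179 CPM in the macrophage table and 105 CPM in the neutrophil table. Psmc5 had 61.1 and 53.9 CPM in the eosinophil libraries, against 110 and 68.4 CPM in the macrophage and neutrophil tables. By file totals neither Psmc3 nor Psmc5 was called, but with TMM or DESeq2 scaling both were called lower than in the macrophage table. Psmc1 had 111 and 104 CPM in the eosinophil libraries, against 155 and 96.2 CPM in the macrophage and neutrophil tables. Psmc6 was the exception. It had 62.9 and 55.1 CPM in the eosinophil libraries, against 27.9 CPM in the macrophage table and 90.6 CPM in the neutrophil table. Library 1 passed 2-fold above the macrophage table and library 2 did not, so Psmc6 was not called, although its log2 ratio of 1.08 was the highest of the 47 genes.

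The 14 non-ATPase genes include the scaffold, the ubiquitin receptors, the deubiquitinase Psmd14 and some assembly factors. Their median log2 ratio was -0.42 over the macrophage table and -0.22 over the neutrophil table. The sign over the neutrophil table changed here too with TMM scaling, to 0.09. Both eosinophil libraries were below the macrophage table for 11 of 14, against 46.9% of all genes tested. They were below the neutrophil table for 8 of 14, near the 51.6% of all genes tested. Psmd2, a large scaffold subunit, had 238 and 230 CPM in the eosinophil libraries, against 456 CPM in the macrophage table and 209 CPM in the neutrophil table. Psmd8, a lid subunit, had 179 and 180 CPM in the eosinophil libraries, against 378 and 125.5 CPM in the macrophage and neutrophil tables. Both stood far below the macrophage table, and by file totals only Psmd8 of the 14 passed 2-fold there, against 17.0% of all genes. With TMM scaling Psmd2 was called lower too, and with DESeq2 size factors Psmd2 and Psmd7 were. Psmd10, known as gankyrin, a chaperone that helps assemble the ATPase ring, had 23.4 and 22.9 CPM in the eosinophil libraries, against 39.0 and 59.3 CPM in the macrophage and neutrophil tables. That level was 2.56-fold higher in the neutrophil table than the eosinophil mean. Psmd9, another assembly chaperone of that ring, had 24.8 and 24.3 CPM in the eosinophil libraries, against 36.3 and 13.3 CPM in the macrophage and neutrophil tables. The 2 chaperones were therefore on opposite sides of the neutrophil table.

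Among the activators, which cap the barrel in place of the regulatory particle, the interferon-inducible pair and the nuclear activator Psme4 gave different orders. Psme1 had 112 CPM in each eosinophil library, against 199 CPM in the macrophage table and 89.8 CPM in the neutrophil table. Psme4, an activator that acts without ubiquitin on acetylated histones, had 135 and 134 CPM in the eosinophil libraries, against 74.8 CPM in the macrophage table and 298 CPM in the neutrophil table. The eosinophil value of Psme4 was between the outside tables, and the neutrophil level was 2.22-fold higher than the eosinophil mean. Psme4 was no longer called with TMM or DESeq2 scaling. Psmf1, an inhibitor of the core, had 42.4 and 42.5 CPM in the eosinophil libraries, against 42.9 and 68.9 CPM in the macrophage and neutrophil tables.

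Psme2b, listed as a gene of its own on chromosome 11, is a near-identical copy of Psme2, the partner of Psme1. It had 114 and 78 counts (2.83 and 2.56 CPM) in the eosinophil libraries, against 25.9 CPM in the macrophage table and 28.2 CPM in the neutrophil table. This was the widest gap of the 47 genes, with both outside tables higher, 9.60-fold for the macrophage table and 10.5-fold for the neutrophil table. Psme2 itself had 83.7 and 83.1 CPM in the eosinophil libraries, against 144 and 67.0 CPM in the macrophage and neutrophil tables, and was called in neither comparison. Reads that the copies share can be counted for one or the other depending on the reads and the counting settings. The settings used for the outside tables are not stated here, so the Psme2b value is uncertain.

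The 4 assembly chaperones Psmg1 to Psmg4 work in pairs to build the alpha ring, and their eosinophil levels were nearer to the macrophage table than to the neutrophil table for all but Psmg3. In the macrophage comparison 0 of 4 were called, with a median log2 ratio of -0.30. Of all genes tested there, 23.7% were called higher and 17.0% lower. Against the neutrophil table the median was 1.03. Psmg2 had 10.4 and 9.58 CPM in the eosinophil libraries, against 10.4 CPM in the macrophage table and 1.88 CPM (12 counts, exact 95% Poisson interval 0.970 to 3.28 CPM) in the neutrophil table. Psmg4 had 8.39 and 7.98 CPM in the eosinophil libraries, against 10.3 CPM in the macrophage table and 3.91 CPM (25 counts, 2.53 to 5.78 CPM) in the neutrophil table. Psmg1 had 10.6 and 8.86 CPM in the eosinophil libraries, against 13.9 and 4.85 CPM in the macrophage and neutrophil tables. Psmg3 had 13.6 and 12.2 CPM in the eosinophil libraries, against 15.5 CPM in each outside table. The 3 low values of the neutrophil table rest on 12 to 31 counts each.

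The genes that work with the proteasome were read by the same 2-fold rule. The 10 partner genes found include assembly factors, receptors and deubiquitinases bound to the particle. Of these, 0 were called against the macrophage table, where 23.7% of all genes were called higher and 17.0% lower. In the neutrophil comparison 2 (Ecpas and Uchl5) were called lower, against 24.4% of all genes. With TMM or DESeq2 scaling, Uchl5 was not called, Sem1 was called higher than in the neutrophil table and Ube3c lower than in the macrophage table. Ecpas, a scaffold that binds proteasomes, had 127 and 118 CPM in the eosinophil libraries, against 102 and 322 CPM in the macrophage and neutrophil tables. Adrm1, a ubiquitin receptor of the particle, had 93.9 and 83.1 CPM in the eosinophil libraries, against 53.4 and 75.0 CPM in the macrophage and neutrophil tables. Sem1, a small lid subunit, had 107 and 102 CPM in the eosinophil libraries, against 87.4 and 52.6 CPM in the macrophage and neutrophil tables. Nub1, which brings NEDD8 conjugates to the proteasome, had 153 and 157 CPM in the eosinophil libraries, against 219 and 241 CPM in the macrophage and neutrophil tables.

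Nfe2l1 is the transcription factor known to raise proteasome genes when proteasome activity is short, after processing by the protease Ddi2 and the deglycosylase Ngly1. Nfe2l1 had 205 and 198 CPM in the eosinophil libraries, against 350 and 297 CPM in the macrophage and neutrophil tables. Ddi2 had 23.1 and 23.0 CPM in the eosinophil libraries, against 57.0 and 79.5 CPM in the macrophage and neutrophil tables. It was the 1 gene of the 4 called lower against both outside tables, as were 4.81% of all genes tested in both. Ngly1 had 51.2 and 49.4 CPM in the eosinophil libraries, against 19.9 CPM in the macrophage table and 158 CPM in the neutrophil table. Nfe2l2, the factor of the oxidative stress response, had 157 and 162 CPM in the eosinophil libraries, against 471 and 254 CPM in the macrophage and neutrophil tables. Ubb, a gene for ubiquitin itself, had 1096 and 1149.8 CPM in the eosinophil libraries, against 953 and 192 CPM in the macrophage and neutrophil tables, and was called higher than in the neutrophil table.

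The interferon-stimulated genes were far lower than in the macrophage table, and of the immune subunits Psmb10 was past 2-fold there while Psmb8 and Psmb9 were not. Of the 18 interferon-stimulated genes tested, 16 were called lower than in the macrophage table, against 17.0% of all genes, with a median log2 ratio of -3.70. Of the 16 tested against the neutrophil table, 9 were called lower, against 24.4% of all genes, and 2 higher (Mx1 and Ifi44). Summed over the 19 genes of the list, the level was 146 and 125 CPM in the eosinophil libraries, against 1848 CPM in the macrophage table and 361 CPM in the neutrophil table. Irgm1, a GTPase of cell-autonomous immunity, had 22.3 and 20.8 CPM in the eosinophil libraries, against 187 and 53.4 CPM in the macrophage and neutrophil tables. Gbp2, a guanylate-binding protein, had 7.32 and 5.65 CPM in the eosinophil libraries, against 58.4 and 83.1 CPM in the macrophage and neutrophil tables. Isg15, a ubiquitin-like modifier, had 5.46 and 4.14 CPM in the eosinophil libraries, against 73.4 and 23.2 CPM. Of the 16 genes tested in both comparisons, 9 were called lower than in both outside tables, against 4.81% of all genes. These were Isg15, Ifit1, Oasl2, Rsad2, Gbp2, Cxcl10, Ifi47, Igtp and Irgm1, of which Irgm1 was not called against the neutrophil table with TMM scaling.

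Most signalling genes above them were lower too, with both eosinophil libraries below each outside table for 10 of 12. Of all genes tested, 46.9% were below the macrophage table and 51.6% below the neutrophil table. Only Socs1 and Jak2 were above both. The median log2 ratios were -0.63 and -0.69, against 0.02 and -0.13 over all genes. In the macrophage comparison 4 were called lower and 2 higher, against 17.0% and 23.7% of all genes. In the neutrophil comparison 5 were called lower and 1 higher, against 24.4% and 27.6%. Stat2, a transcription factor of the type I interferon response, had 62.5 and 59.4 CPM in the eosinophil libraries, against 344 and 162 CPM in the macrophage and neutrophil tables. Its partner Irf9 and the receptor chain Ifnar1 were likewise called lower against both tables. Socs1, an inhibitor of cytokine receptor signalling, had 79.1 and 83.9 CPM in the eosinophil libraries, against 1.34 CPM in the macrophage table and 2.97 CPM in the neutrophil table, and was called higher against both. Jak2, a kinase of the interferon-gamma and interleukin 5 receptors, had 353 and 370 CPM in the eosinophil libraries, against 26.3 and 332 CPM.

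Among the class I presentation genes, Tap1 and Tap2 are also neighbours of Psmb8 and Psmb9. On chromosome 17 the annotation runs Psmb9, Tap1, Psmb8 and Tap2, whereas Psmb10 lies on chromosome 8 between Ctrl and Lcat. Tap1 had 78.4 and 70.5 CPM in the eosinophil libraries, against 171 and 175 CPM in the macrophage and neutrophil tables, and was called lower against both, as was the peptide editor Tapbpl. With TMM or DESeq2 scaling neither was called against the neutrophil table. The eosinophil libraries were below both outside tables for Tap1 and for Psmb9, the genes of the shared window printed above, as for 25.0% of all genes. The other 2 genes of the stretch, Psmb8 and Tap2, lay between the outside tables. Tap2 had 155 and 169 CPM in the eosinophil libraries, against 118 and 196 CPM in the macrophage and neutrophil tables. A part of the shared window in these levels was not tested. B2m, the light chain of class I molecules, had 493 and 481 CPM in the eosinophil libraries, against 1044 CPM in the macrophage table and 107 CPM in the neutrophil table. H2-K1, a heavy chain, had 520 and 545 CPM in the eosinophil libraries, against 1215 and 197 CPM in the macrophage and neutrophil tables. Of the 12 genes, 5 were called lower and 0 higher than in the macrophage table, against 17.0% and 23.7% of all genes. Relative to the neutrophils 2 were called lower and 5 higher, against 24.4% and 27.6% of all genes, so the lower count was near the share over all genes. Cell type, stimulation and study of the outside tables cannot be told apart in any of these lists.

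**Figure D4:**
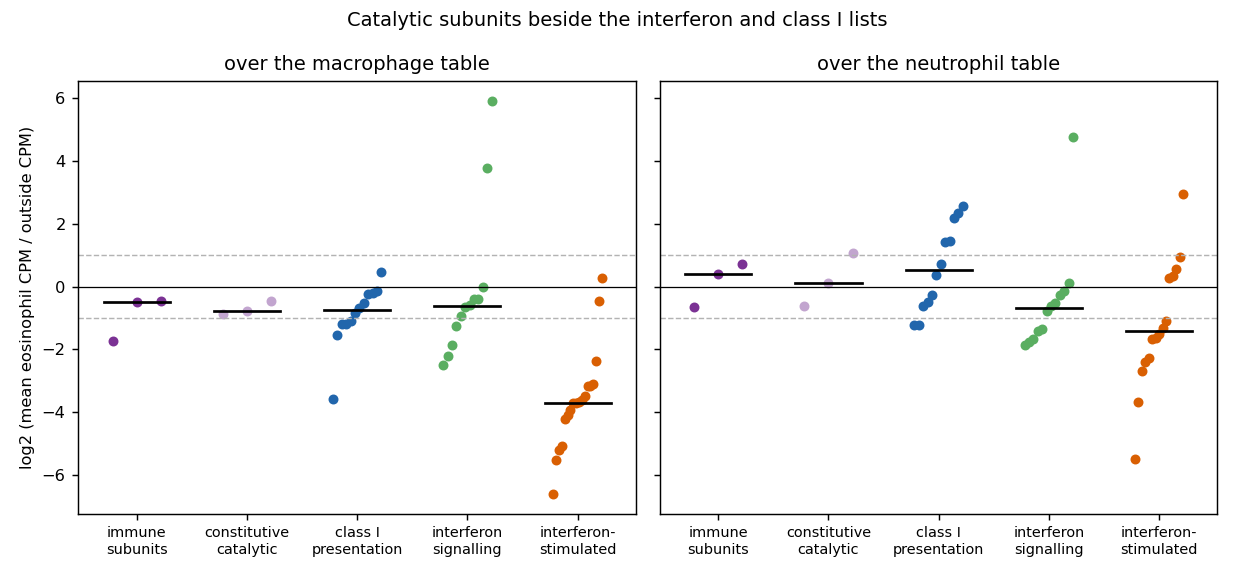
Log2 ratio of the mean eosinophil CPM over the macrophage table and over the neutrophil table for the immune subunits, the constitutive catalytic subunits and the genes tested of 3 lists; each point is a gene, black bars are medians and dashed lines mark 2-fold. The interferon-stimulated median is -3.70 over the macrophage table, against -0.50 for the immune subunits; Ifi44 has 0 counts in the neutrophil table and is not drawn there.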

How the data were processed

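The authors deposited whole-number counts of reads per gene for each RNA library, without normalization. Libraries were made with a stranded mRNA kit per the labels' protocols. The submitters' processing notes name cutadapt, Trim Galore 0.4.2, STAR 2.5, featureCounts and the mm9 build. The strand setting is not given in the sources used here. The 2 outside count tables, deposited with the series, were read by the cell type of the selection rule. Symbols of 25075 of 25101 genes were found in all tables, and 26 symbols altered in the outside tables were not used. CPM is the count over the table's total. Nothing in the labels says that the 2 eosinophil libraries came from separate animals, so their SD may be technical. No test across genes was run, because each comparison has 1 library on 1 side.

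Named genes were the 6 catalytic genes, every gene called, the 2 highest and 2 lowest of each role class, those not detected, and in each list up to 4 of the highest and every gene called against both tables. Psme2, Psma1 and Psma3 fall outside that rule and were chosen after their values were seen, as were examples within the lists. Members and lists were chosen with earlier results of these data known. TMM factors came from edgeR 4.0.16 and size factors from DESeq2 1.42.0. Intervals are exact Clopper-Pearson or Poisson intervals at 95%. Levels per coding length were not made, since no transcript lengths were used here. CPM order within a class served only to pick the genes named, and is not a comparison of levels between genes. The peak lists were not used here. A few genes of the lists are not reported here.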

Additional observations from a re-analysis of the deposited data

How the results depend on the processing

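Depth limits the neutrophil table most, and the SDs rest on 2 libraries. Against the macrophage table, the number of genes called lower was 6 with TMM scaling, 8 with DESeq2 size factors and 13 with a 1.5-fold rule, against 3 as reported. Over all 12125 genes tested, these settings called 2480, 2459 and 3348 lower, against 2061, so the numbers over all genes rose too. The number called higher was 2 at 1.5-fold (Psmc6 and Psme4) and 2 when scaled to the median proteasome gene, a setting chosen after seeing the data, against 0. Over all genes tested, 3865 were called higher at 1.5-fold, against 2873. The median log2 ratio was -0.50 with either scaling, against -0.36. The all-gene medians were -0.12 with TMM and -0.13 with DESeq2, against 0.02. Against the neutrophil table, the number called higher was 6 with TMM, 5 with DESeq2, 7 at 1.5-fold, and 1 with a 10 CPM filter, at 3-fold or when scaled to the median gene, against 3. Over all genes tested, TMM called 3984 of 12244 higher, DESeq2 3775 of 12245 and the 1.5-fold rule 4163 of 12238, against 3383 of 12238. The 10 CPM filter called 1634 of 8926 higher and the 3-fold rule 2617 of 12238. The number called lower was 6 at 1.5-fold and 1 at 3-fold, and Psme4 was not called with either scaling. Over all 12238 genes tested, 4366 were called lower at 1.5-fold and 1617 at 3-fold, against 2981. Both libraries were below for 10 genes with TMM, against 21, and the number over all genes with TMM is not given here. The median log2 ratio was 0.39 with TMM, 0.28 with DESeq2 and -0.014 with a 10 CPM filter, against 0.08. The all-gene medians in these settings were 0.19, 0.08 and -0.35, against -0.13. The median of the paired immune ratios was 0.460, with log2 ratios of -0.96 over the macrophage table and -1.54 over the neutrophil table. The last sets Psmb10/Psmb7 in the eosinophil libraries against Psmb9/Psmb6 in the neutrophil table, since the median fell on different pairs, and Psmb10/Psmb7 alone gave 0.29. Library 1 was the higher for 29 genes with TMM and 28 with DESeq2, against 43, without the shares over all genes at those scalings. Leaving out either library gave 0 to 1 genes higher and 3 to 4 lower than in the macrophage table. Over all genes tested, that gave 2888 to 3337 higher and 2134 to 2442 lower. Ratios per coding length were not run. No paired analysis was possible because the outside tables carry no replicate numbers and the series has 1 group of RNA libraries.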
